A study of Mus musculus with 32 samples.

Results

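The genes for the voltage-gated sodium and calcium channels, and for the subunits that travel with them, were followed through nuclei sorted from the muscle layer of the mouse gut. The set holds all 40 protein-coding genes whose GRCm38 symbol names 1 of 6 kinds of subunit, out of 51912 gene identifiers (21870 of them protein-coding) in the deposited table. The kinds are sodium channel alpha subunits (10 genes), sodium channel beta subunits (4 genes), calcium channel alpha1 subunits (10 genes), and calcium channel alpha2delta (4 genes), beta (4 genes) and gamma subunits (8 genes). Membership follows from the symbol alone, but the family was chosen with earlier results of these data known.

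The libraries came from C57BL/6 mice kept specific pathogen-free at the University of Bern or at the Francis Crick Institute. All mice, at both facilities, had received the virus AAV9-CaMKII-EGFPKASH by vein 5 weeks earlier, which places EGFP on the nuclear envelope of cells in which the CaMKII promoter is active. The outer muscle with the myenteric plexus was stripped from colon and small intestine (SI), nuclei were released, and EGFP-positive (neuronal) and EGFP-negative (non-neuronal) nuclei were collected by flow cytometry. Facility, segment and sort make 8 groups of 4 libraries. The sort is a limit of the model: neurons that the virus missed, or in which the promoter was silent, fall among the EGFP-negative nuclei, and any other cell with EGFP falls among the positive ones. The labels give no age, no sex, and nothing on whether animals were pooled. Nor do they say that replicates came from separate mice, so p-values measure only the spread between these samples, which may be technical.

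In a voltage-gated sodium channel 1 alpha subunit forms the pore that carries the upstroke of the action potential, and the beta subunits tune its gating and anchor it in the membrane. A calcium channel is named by its alpha1 subunit: L-type channels drive contraction of smooth muscle, P/Q-type and N-type channels open at nerve endings and release transmitter, R-type channels shape firing, and T-type channels open close to the resting potential and support pacemaking. The alpha2delta and beta subunits bring the pore to the cell surface, and most of the gamma family serve glutamate receptors of the AMPA type instead. Myenteric neurons are known for sodium spikes and for a calcium shoulder on the action potential, while smooth muscle of the gut fires on calcium current.

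Values are the deposited estimated counts as a share of the library's total, in CPM. Library totals ran from 2394513 to 8350887 counts (median 4364112), and at least 1 count was found for 15708 to 22533 genes in a Bern library and for 25789 to 35260 genes in a Crick library, so depth and detection differ with the facility. Transcripts of the mitochondrial genome made up 0.423% to 6.82% of the counts in Bern neuronal libraries and 3.49% to 12.9% in Bern non-neuronal ones (Crick 0.826% to 16% and 4.75% to 23.6%). The sort was checked on genes outside the set: all 12 neuronal genes tested (such as Elavl4, Prph and Ret) were higher in neuronal nuclei, and all genes listed for glia (5), smooth muscle (8), fibroblasts with PDGFRA cells (6), macrophages (5), endothelium (4), epithelium (5) and mesothelium (3) were lower. The lists were chosen with earlier results of these data known, so the check is not independent of them. Of 4 genes of interstitial cells of Cajal, Etv1 was higher (2.03 ± 0.20) and Kit, Ano1 and Prkcq were lower, with both segments averaged. Their sum went another way in SI. It was 702 to 2250 CPM in Bern and 1150 to 1850 in Crick SI neuronal libraries, against 223 to 1030 and 158 to 856 in non-neuronal ones. In colon it was 346 to 504 CPM in Bern and 268 to 405 in Crick neuronal libraries, against 392 to 554 and 333 to 472. The 12 neuronal genes were not absent from the non-neuronal libraries. Their summed level there was 25.2% of that in neuronal nuclei in Bern colon, 9.79% in Crick colon, 4.45% in Bern SI and 4.06% in Crick SI.

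Promoters are shown for 3 genes that the comparisons below turn on, the neuronal sodium channel gene Scn9a, its chromosome 2 neighbour Scn7a, and the N-type calcium channel gene Cacna1b. Each is the 250 bases before the start of transcription in RefSeq (GRCm38.p6), 5′ to 3′ on the gene's own strand, and all 3 lie on the minus strand, at chr2:66634963-66635212, chr2:66784911-66785160 and chr2:24763153-24763402. Capitals mark the GC box (GGGCGG) and the E-box (CANNTG), searched on both strands.
Scn9a: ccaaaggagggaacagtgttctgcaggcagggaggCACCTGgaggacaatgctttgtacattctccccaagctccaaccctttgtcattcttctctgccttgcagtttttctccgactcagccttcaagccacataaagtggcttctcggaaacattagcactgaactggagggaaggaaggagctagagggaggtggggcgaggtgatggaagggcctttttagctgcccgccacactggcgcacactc
Scn7a: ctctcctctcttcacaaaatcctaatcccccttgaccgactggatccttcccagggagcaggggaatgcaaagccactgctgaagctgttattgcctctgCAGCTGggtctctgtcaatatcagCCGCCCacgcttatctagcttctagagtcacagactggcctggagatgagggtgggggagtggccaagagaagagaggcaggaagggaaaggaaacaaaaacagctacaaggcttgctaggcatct
Cacna1b: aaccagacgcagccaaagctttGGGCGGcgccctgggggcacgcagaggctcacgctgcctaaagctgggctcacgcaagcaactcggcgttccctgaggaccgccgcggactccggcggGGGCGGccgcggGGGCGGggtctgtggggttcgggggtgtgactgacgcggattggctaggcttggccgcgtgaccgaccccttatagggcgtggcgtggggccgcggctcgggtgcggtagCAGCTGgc
The Scn9a window holds 1 E-box and no GC box at 54.4% G and C, the Scn7a window 1 of each at 53.2%, and the Cacna1b window 3 GC boxes and 1 E-box at 72.0%. Of 32851 promoter windows of this length, 32.7% hold a GC box and 66.2% an E-box, and the median G and C content is 52.4%. A TATA box (TATAAA, in 12.4% of windows), a cAMP response element (TGACGTCA, 1.55%) and the partial sites of the neuronal repressor element RE1 (TTCAGCACC, 0.301%, and GGACAG, 18.7%) were searched as well, and their letters do not occur in these 3 windows. RefSeq promoters were matched by symbol for 30 of the 40 genes.

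Many of the genes sit side by side. On chromosome 2, 5 sodium channel genes share 1.33 Mb in the order Scn3a (65457118 to 65567627, minus strand), Scn2a (65620771 to 65767447, plus), Scn1a (66270778 to 66440840, minus), Scn9a (66480080 to 66634962, minus) and Scn7a (66673425 to 66784914, minus). These neighbours are also relatives in sequence. Of all windows of the read length (75 bases) in the transcripts of Scn3a, 3.85% occur unchanged in Scn9a, Scn2a or Scn1a, and for those 3 genes the shares are 2.78%, 2.8% and 1.88%, so a small part of their counts was divided between them by the authors' counting. Scn7a, Scn8a, Scn11a, Cacna1b, Cacna1c, Cacna1g and Cacna2d3 have no such window. Exons of Cacnb4 overlap a transcript on the other strand over 16% of their length, those of Cacnb2 over 4.67% with 1 such gene, those of Cacna1d over 4.67% with Chdh, and the strand of the counts is not stated.

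All 40 genes had a count above 0 in at least 1 library, and 19 had one in all 32. Scn4b, Cacna1s, Cacng1 and Cacng6 gave 45, 37, 7 and 24 counts over all 32 libraries together, too few to test between sorts. Cacna1s, Cacng1 and Cacng6 encode calcium channel subunits of striated muscle, and Scn4b a beta subunit of brain and heart. Scn4a and Scn10a, the skeletal muscle channel and a channel of sensory ganglia, stayed at or below 6.1 CPM and 9.69 CPM in every library. The 4 genes that stand for the family here, Scn9a, Scn3a, Cacna1c and Cacna1g, were all detected, the first 3 in 32 libraries and Cacna1g in 30.

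**Figure D1:**
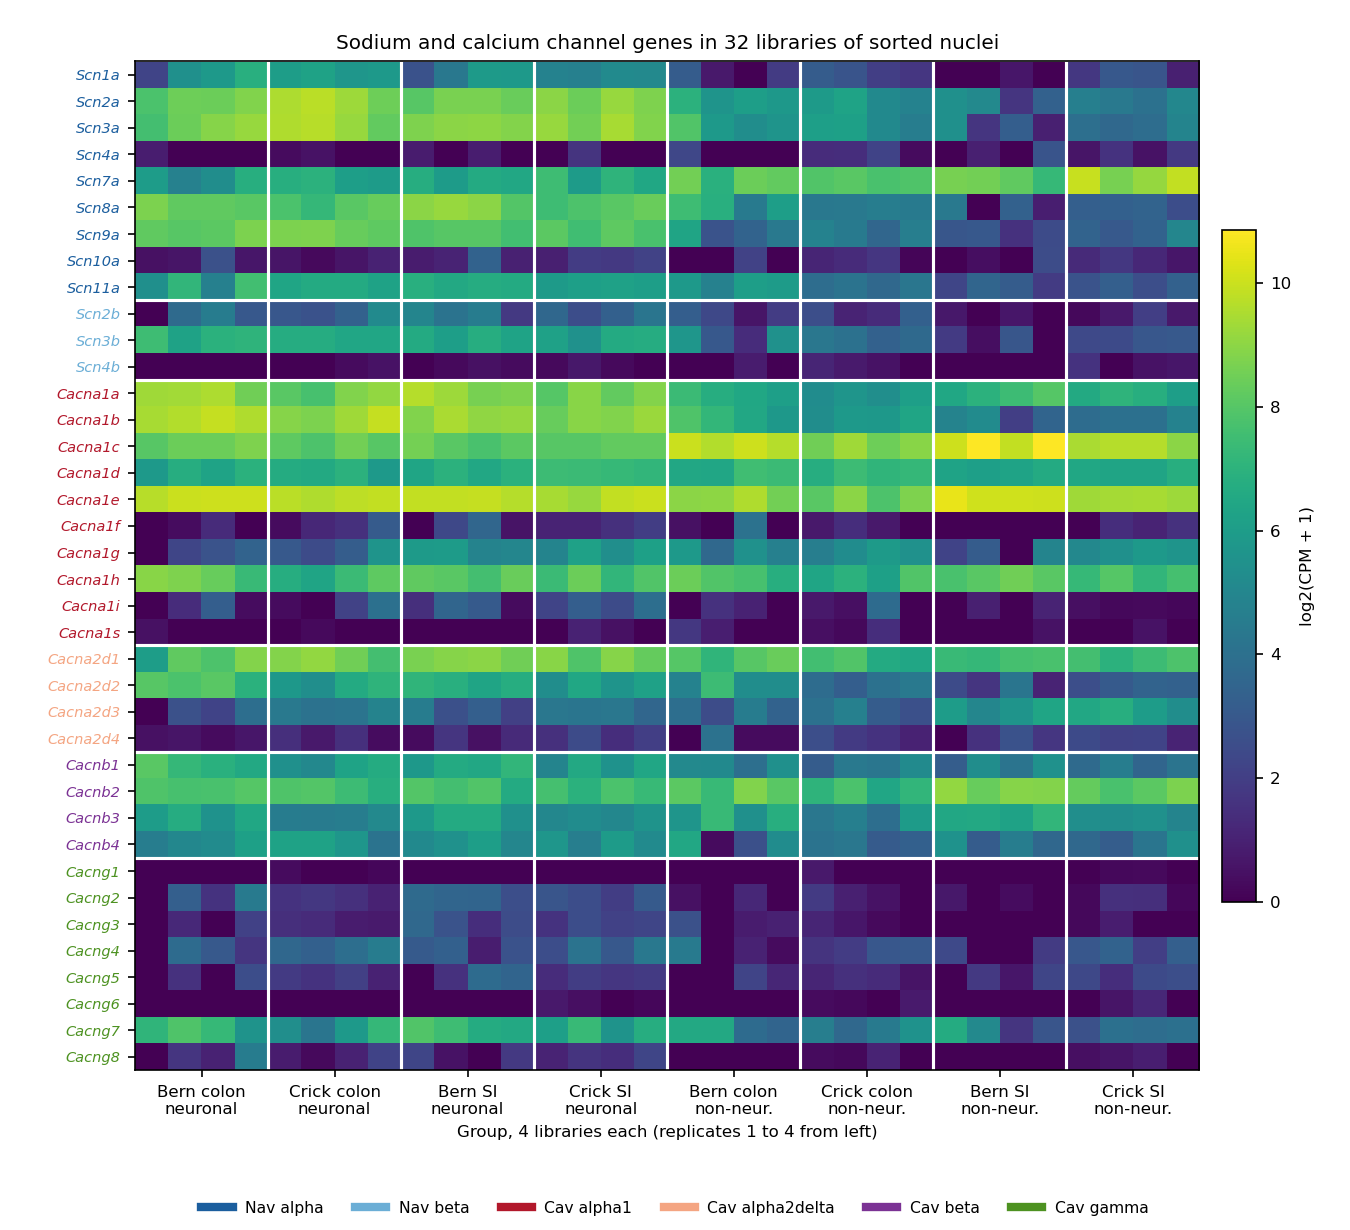
Level of each of 38 channel genes (one line each, coloured by kind of subunit) in each of the 32 libraries (columns, 4 replicates a group), as log2(CPM + 1). Most sodium channel alpha genes are bright in the neuronal columns on the left, Scn7a and Cacna1c are brighter in the non-neuronal columns on the right, and Cacna1e is bright throughout.

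Levels of different genes were compared only after division by exon length (CPM per kb). Among the 10 sodium channel alpha genes of neuronal nuclei, Scn3a held 23.6% ± 4.44 and Scn2a 20.6% ± 4.65 of the summed level (mean ± SD, n = 16 libraries). Scn9a (13.6% ± 2.77) and Scn8a (12.6% ± 5.43) followed, then Scn11a (8.96% ± 3.48), Scn7a (7.16% ± 2.73) and Scn1a (2.38% ± 1.31). Scn3a and Scn2a, Scn9a and Scn8a, and Scn11a and Scn7a differed by less than 1 SD, while Scn2a and Scn9a did not. Scn3a and Scn2a are the channels of developing and adult brain, Scn9a and Scn11a those of peripheral sensory, sympathetic and enteric neurons, and Scn8a the main channel of nodes of Ranvier.

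In non-neuronal nuclei 1 gene took most of the summed level. Scn7a, which encodes a relative of the voltage-gated channels described as a sodium sensor in glial cells, held 74.5% ± 18.4 there (n = 16, lowest library 38.9%, highest 95.5%), and no other sodium channel alpha gene held more than the 5.19% ± 4.5 of Scn11a. By group the Scn7a share was 49.8% in Bern colon, 67.7% in Crick colon, 88.1% in Bern SI and 92.3% in Crick SI. The 12 neuronal genes used for the check of the sort summed, in the same groups, to 809 to 1790 CPM in Bern colon, 175 to 355 in Crick colon, 35.8 to 691 in Bern SI and 52 to 172 in Crick SI. Their part in the Scn7a shares was not tested.

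Among the 10 calcium channel alpha1 genes of neuronal nuclei, the N-type gene Cacna1b held 32% ± 5.13 of the summed level per kb, the P/Q-type gene Cacna1a 21.3% ± 4.47, the R-type gene Cacna1e 19.1% ± 3.82, the T-type gene Cacna1h 13% ± 4.32 and the L-type gene Cacna1c 7.65% ± 1.75 (mean ± SD, n = 16). With the length of the longest coding transcript in place of all exons, a choice made after seeing the data, Cacna1b fell to 24.6% ± 4.23. Cacna1e then came to 24.2% ± 4.52 and Cacna1a to 23.1% ± 4.87. The lead of Cacna1b over Cacna1e and Cacna1a thus rests on the length used. In non-neuronal nuclei Cacna1c led with 34.2% ± 6.62, ahead of Cacna1e (22.6% ± 6.53) and Cacna1h (17.9% ± 4.72), and it led under both lengths. The 3 T-type genes were unequal in neuronal nuclei, with Cacna1h at 25.7 CPM per kb, Cacna1g at 2.96 and Cacna1i at 0.508.

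**Figure D2:**
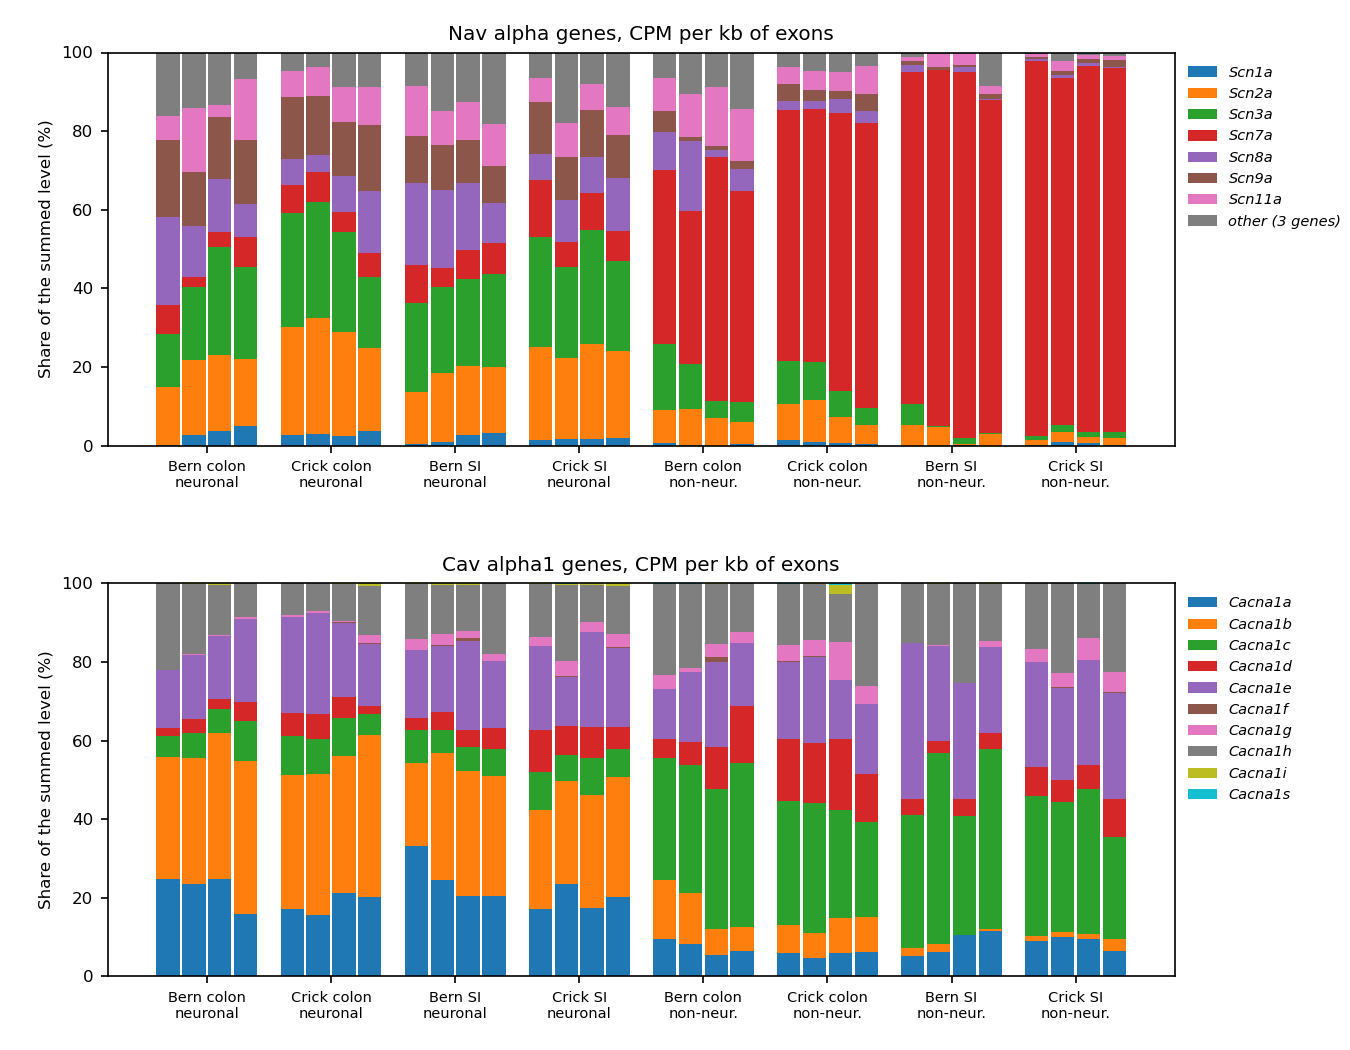
Share of each gene (3 sodium channel genes together as other) in the summed level (CPM per kb of exons, percent) of the sodium channel alpha genes (top) and the calcium channel alpha1 genes (bottom), one stacked bar a library, 4 bars a group. The red Scn7a segment of the top panel is at most a minor part of every neuronal bar and reaches 95.5% of a non-neuronal one, and the green Cacna1c segment of the bottom panel is wider in non-neuronal bars.

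The first question the design poses is which of the genes mark the neuronal nuclei. Of the 36 genes with enough counts to be tested, 22 were higher in neuronal nuclei, 6 were lower and 8 did not pass (edgeR's quasi-likelihood test on all 32 libraries, Benjamini-Hochberg adjusted p below 0.05 over 21521 genes). That is 77.8% of those tested, where 43.5% of all genes passed (21.9% higher, 21.6% lower). The median log2 fold change was 1.88, or 1.54 with the 4 genes that had a group at 0 set to their lower bounds, against -0.01 for all genes. Fold changes compare the mean of the 4 neuronal groups with the mean of the 4 non-neuronal ones, and are given as log2 ± SE. In sorted bulk nuclei a lower value cannot be told apart as fewer cells of a type or less RNA in each. Each of these calls except those of Scn4a and Cacna2d4 held on leaving out any 1 of the 32 libraries.

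Sodium channel alpha genes were mostly higher in neuronal nuclei, with a median log2 fold change of 3.58. Scn9a lay at 183 to 433 CPM in the 16 neuronal libraries (median 279) and at 1.95 to 79.4 CPM in the 16 non-neuronal ones (median 9.99). All neuronal libraries were above all non-neuronal ones, and the fold change was 4.25 ± 0.27 (adjusted p = 1.37e-15), 19.1-fold. On the scale of mean CPM the log2 ratio was 4.02 within Bern and 4.11 within Crick. Scn2a ran from 221 to 845 CPM (median 408) in neuronal nuclei and from 2.23 to 125 CPM (median 34.1) in non-neuronal ones, again without overlap, with a fold change of 3.47 ± 0.26 (adjusted p = 6.12e-14). Scn3a ran from 197 to 824 CPM (median 486) against 0.937 to 242 CPM (median 31.6). Here the ranges overlapped through 1 library, replicate 1 of the Bern colon non-neuronal group, and the fold change was 3.89 ± 0.33 (adjusted p = 2.61e-12).

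Scn8a was at 151 to 573 CPM (median 284) in neuronal nuclei and at 0 to 177 CPM (median 19.5) in non-neuronal ones, a change of 3.97 ± 0.32 (adjusted p = 7.06e-13). The sorts overlapped over all groups through 1 Bern colon non-neuronal library, replicate 1, and did not overlap within any of the 4 pairs of facility and segment. Scn1a, a channel of brain interneurons, was lower in level, at 3.74 to 116 CPM (median 46.6) against 0 to 7.95 CPM (median 2.34), and changed by 4.58 ± 0.50 (adjusted p = 1.12e-09). Scn11a was at 25.4 to 187 CPM (median 87.7) against 2.71 to 66.3 CPM (median 11.2), and its change of 2.58 ± 0.25 (adjusted p = 7.03e-11) was smaller than those of the 5 other alpha genes given here. Scn10a did not pass (0.36 ± 0.69, adjusted p = 0.724). Within Bern and within Crick the log2 ratio of mean CPM was 2.86 and 3.92 for Scn2a, 2.99 and 4.09 for Scn3a, 2.92 and 4.08 for Scn8a, and 1.77 and 2.80 for Scn11a, in the same direction in both.

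Scn7a, next to Scn9a on chromosome 2, went the other way. It was at 26.3 to 177 CPM (median 89.1) in neuronal nuclei and at 117 to 976 CPM (median 322) in non-neuronal ones. The sorts overlapped over all groups but not within any pair of facility and segment, and the level was 4.21-fold lower in neuronal nuclei (-2.08 ± 0.20, adjusted p = 6.59e-11; log2 ratio of mean CPM -1.97 within Bern and -2.22 within Crick). The 5 glial genes were lower in neuronal nuclei too, with sums of 10.1 to 35.7 CPM against 16.5 to 230 CPM and Gfap at 0 in Bern colon neuronal libraries, as were the 8 smooth muscle genes (459 to 1280 CPM against 6000 to 17900). Their part in the Scn7a result was not tested. Scn4a was called lower (-2.23 ± 0.86, adjusted p = 0.0338) at levels of at most 2.08 CPM against 6.1 CPM. That call was lost without any 1 of 13 libraries, with a change of -0.99 (adjusted p = 0.969) without replicate 1 of the Bern colon and -1.66 (adjusted p = 0.128) without replicate 4 of the Bern SI non-neuronal group. Of 7 skeletal muscle genes 4 could be tested and 2 were lower in neuronal nuclei, with sums of 0 to 13.7 CPM against 7.58 to 132 CPM.

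Of the sodium channel beta genes, Scn3b was at 44.7 to 176 CPM (median 97.9) against 0 to 50.7 CPM (median 6.86), with a change of 3.47 ± 0.35 (adjusted p = 1.49e-10). The sorts overlapped only in that replicate 1 of Bern colon non-neuronal nuclei (50.7 CPM) was above the lowest Crick SI neuronal library (44.7 CPM). Scn2b (0 to 35.4 CPM against 0 to 8.98 CPM) changed by 3.00 ± 0.56 (adjusted p = 2.55e-05), and within colon alone by 1.60 (adjusted p = 0.0846).

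**Figure D3:**
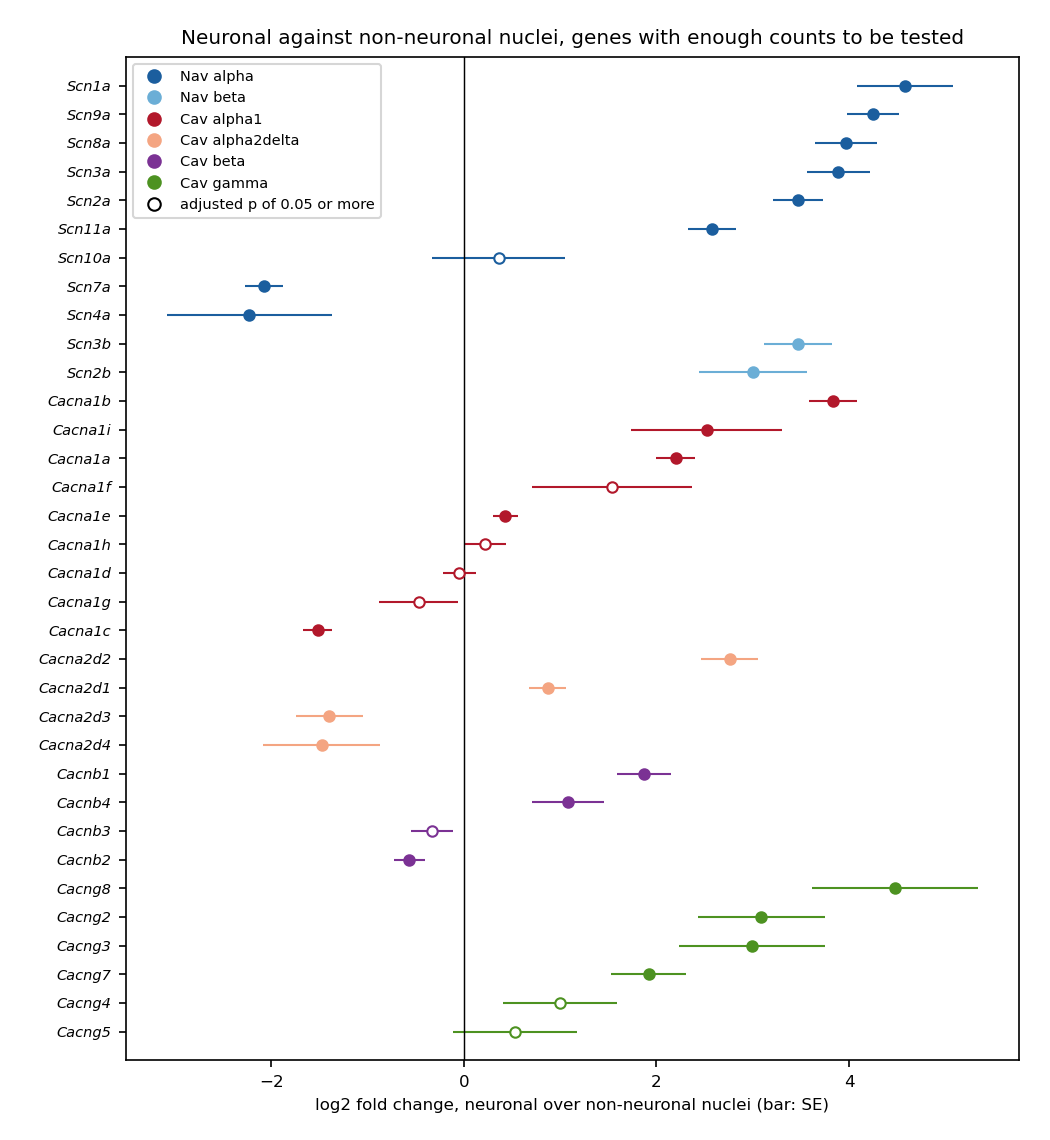
Log2 fold change, neuronal over non-neuronal nuclei, of 34 channel genes with enough counts, with SE as bars and 32 libraries in the fit. Filled points passed an adjusted p of 0.05. Scn1a at 4.58 is the rightmost and Scn4a at -2.23 the leftmost of the points.

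Calcium channel alpha1 genes were divided between the sorts, with 4 higher, 1 lower and 4 not passing of 9 tested. The share that passed was 55.6%, where 43.5% of all genes passed. Cacna1b, whose N-type channel releases transmitter at nerve endings, was at 322 to 959 CPM (median 585) in neuronal nuclei and at 3.06 to 230 CPM (median 38.0) in non-neuronal ones. The sorts did not overlap, and the change was 3.83 ± 0.25 (adjusted p = 2.72e-15), 14.2-fold. Cacna1a, the P/Q-type gene, was at 209 to 805 CPM (median 456) against 37.4 to 253 CPM (median 92.5), a change of 2.20 ± 0.20 (adjusted p = 1.61e-11). Its ranges met only across facilities and segments, between Bern SI non-neuronal replicate 4 and 2 Crick neuronal libraries below it. The log2 ratio of mean CPM was 3.19 within Bern and 3.84 within Crick for Cacna1b, and 2.12 and 2.30 for Cacna1a. Cacna1i, a T-type gene of low level (up to 14.9 CPM), changed by 2.52 ± 0.78 (adjusted p = 0.00782), and within colon alone by 1.12 (adjusted p = 0.449).

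Cacna1c, the L-type gene of smooth muscle and heart, was the 1 alpha1 gene lower in neuronal nuclei. It was at 215 to 428 CPM (median 284) there and at 350 to 1860 CPM (median 806) in non-neuronal nuclei. The level was 2.86-fold lower (-1.52 ± 0.15, adjusted p = 1.34e-10), with a log2 ratio of mean CPM of -1.89 within Bern and -1.03 within Crick. The Crick colon was the pair in which the sorts overlapped, by 378 CPM in a neuronal and 350 and 368 CPM in 2 non-neuronal libraries. All 8 smooth muscle genes were lower in neuronal nuclei as well (sums given above), and their part in this result was not tested.

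The R-type gene Cacna1e was well detected in both sorts and differed little between them with the segments averaged. It lay at 584 to 1050 CPM (median 932) in neuronal and at 229 to 1450 CPM (median 631) in non-neuronal libraries, a change of 0.43 ± 0.13 (adjusted p = 0.00718). In both colon pairs all neuronal libraries were above all non-neuronal ones, with means of 986 against 536 CPM in Bern and 856 against 357 in Crick. The SI means were 911 against 1170 CPM in Bern and 807 against 661 in Crick. Within SI alone the change was -0.18 (adjusted p = 0.492), and in Bern SI all 4 non-neuronal libraries (1050 to 1450 CPM) were above all 4 neuronal ones (809 to 965 CPM). The L-type gene Cacna1d, a pacemaking channel, did not pass (medians 114 and 95.1 CPM, -0.05 ± 0.17, adjusted p = 0.858, interval -0.37 to 0.27), nor did the T-type genes Cacna1h (medians 252 and 212 CPM, 0.22 ± 0.22, adjusted p = 0.451) and Cacna1g (medians 28 and 35 CPM, -0.47 ± 0.41, adjusted p = 0.386). For Cacna1d and Cacna1g this average joins opposite directions. Neuronal means of Cacna1d were 90.5 against 132 CPM in Bern and 94.8 against 142 in Crick colon. In SI they were 105 against 81.1 CPM in Bern and 160 against 90.2 in Crick. Those of Cacna1g were 4.93 against 34.6 CPM in Bern and 16.9 against 41.3 in Crick colon. In SI they were 44.8 against 10.1 CPM in Bern and 53.3 against 45.5 in Crick.

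**Figure D4:**
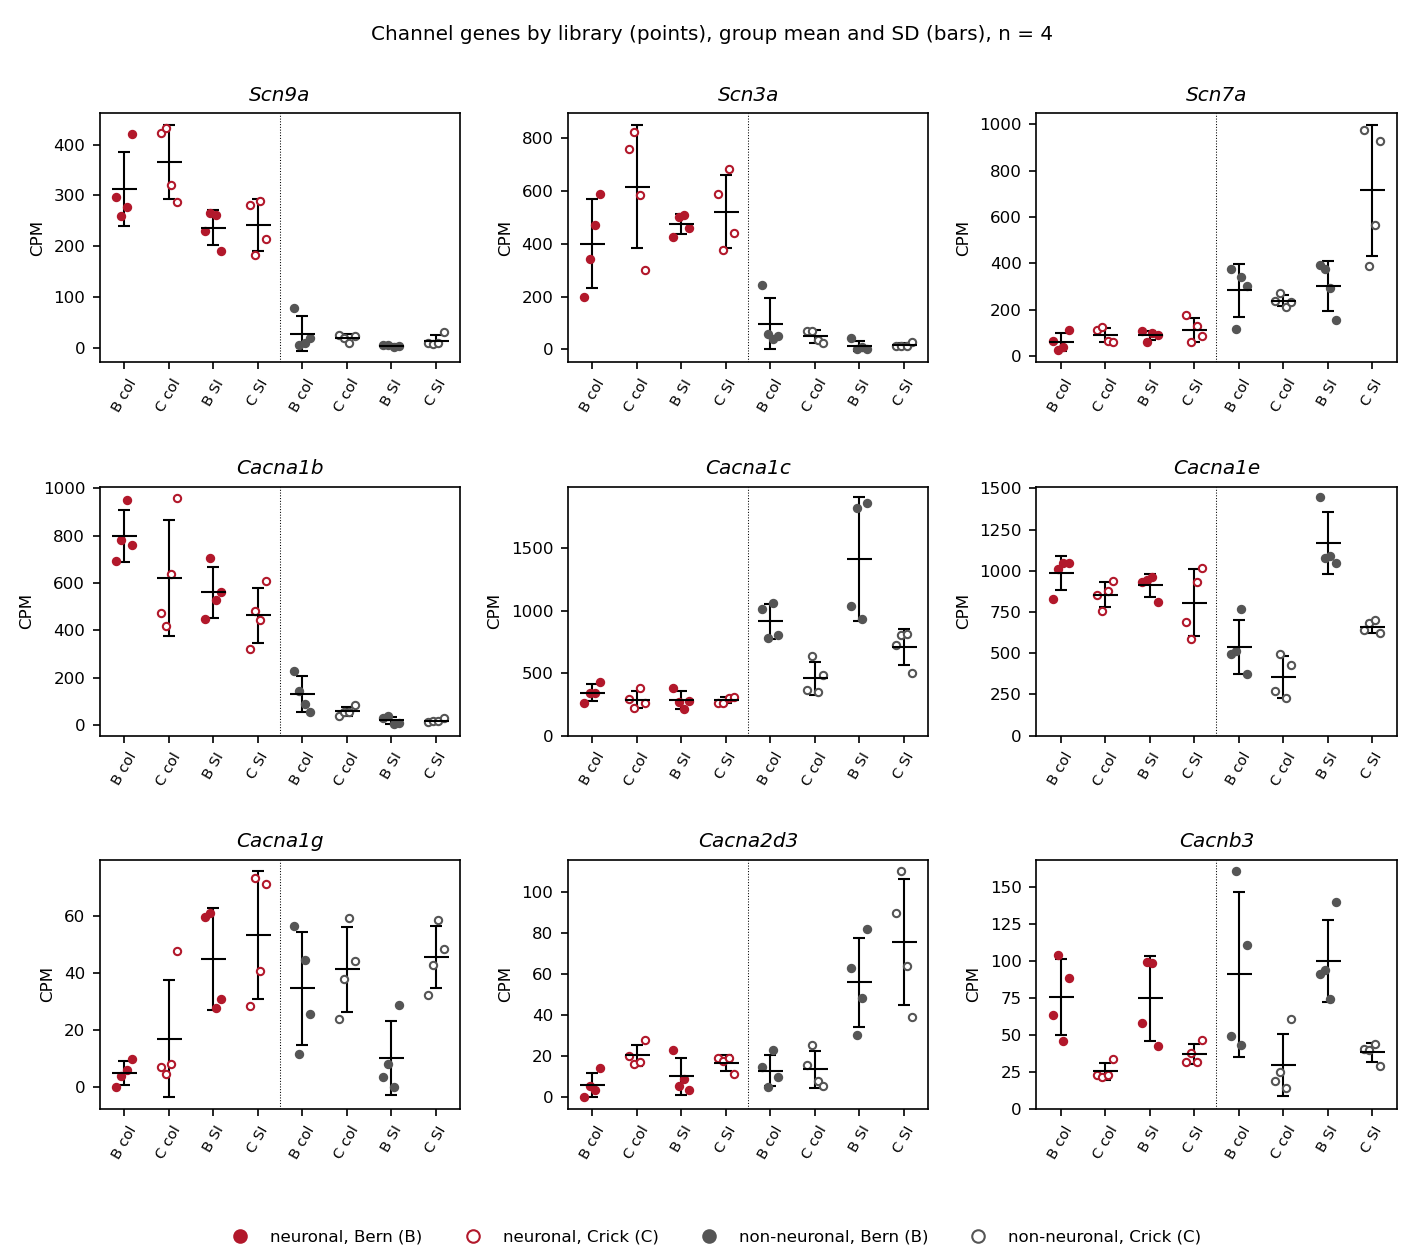
CPM in each library (points) for 9 channel genes, by facility and segment, with neuronal groups in red on the left and non-neuronal groups in grey on the right of each panel, and group mean and SD as bars (n = 4). Scn9a, Scn3a and Cacna1b fall from left to right, Scn7a and Cacna1c climb, and the Cacna1g panel shows the colon neuronal groups below the SI neuronal groups.

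Among the auxiliary calcium channel subunits, alpha2delta and beta genes changed in both directions. Of the alpha2delta genes, Cacna2d2 was at 38.7 to 270 CPM (median 103) in neuronal and at 1.13 to 172 CPM (median 11.8) in non-neuronal nuclei, a change of 2.76 ± 0.30 (adjusted p = 1.14e-09). A single non-neuronal library, Bern colon replicate 2 at 172 CPM, made most of the overlap. Cacna2d1, the gene of the subunit that binds gabapentin and the most abundant of the family per kb, was at 65.7 to 547 CPM (median 388) against 83.9 to 331 CPM (median 193), a change of 0.87 ± 0.19 (adjusted p = 0.000264). Cacna2d3 was lower in neuronal nuclei, at 0 to 27.8 CPM (median 15.2) against 4.76 to 110 CPM (median 27.8). Its change was -1.40 ± 0.35 (adjusted p = 0.00117), and within colon alone -0.30 (adjusted p = 0.692). The test of the difference between segments did not pass (2.19 ± 0.70, adjusted p = 0.0502). Cacna2d4 stayed at or below 4.64 CPM in neuronal libraries, and its call (-1.48 ± 0.61, adjusted p = 0.0461) was lost without any 1 of 20 libraries, with -0.39 (adjusted p = 0.671) without replicate 2 of the Bern colon non-neuronal group, the library at 16.2 CPM. With the replicate block the Cacna2d4 change was -1.04 (adjusted p = 0.197).

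Of the 4 beta genes Cacnb1 was higher in neuronal nuclei (29.2 to 274 CPM, median 90.4, against 7.89 to 43.6 CPM, median 19.1), with a change of 1.87 ± 0.28 (adjusted p = 7.88e-07). Cacnb4 changed by 1.08 ± 0.37 (adjusted p = 0.0172) with medians of 40.0 and 14.0 CPM, and did not pass within colon (1.20, adjusted p = 0.0779) or SI (0.97, adjusted p = 0.165) alone. Cacnb2, the beta subunit that pairs with Cacna1c in heart and smooth muscle, was lower (medians 209 and 276 CPM, -0.57 ± 0.16, adjusted p = 0.00351). The change within colon alone was 0.00 with an adjusted p of 1, and the difference between segments passed (1.13 ± 0.32, adjusted p = 0.0261). Cacnb3 did not pass (-0.33 ± 0.22, adjusted p = 0.244).

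Of 6 gamma genes tested 4 were higher in neuronal nuclei and none lower, where 21.9% of all genes were higher and 21.6% lower. Cacng7 was the most abundant, at 17.5 to 242 CPM (median 106) against 2.23 to 101 CPM (median 15.0), a change of 1.92 ± 0.39 (adjusted p = 9.8e-05). Cacng2, Cacng3 and Cacng8 are among the genes for AMPA receptor partners known as TARPs and were low, with neuronal medians of 5.02, 1.91 and 1.40 CPM. Cacng2 changed by 3.09 ± 0.66 (adjusted p = 0.000174), Cacng3 by 2.99 ± 0.76 (adjusted p = 0.00149, and by 0.37 with an adjusted p of 0.807 within colon alone) and Cacng8 by 4.48 ± 0.86 (adjusted p = 6.94e-05). Cacng8 was at 0 in all 8 Bern non-neuronal libraries. From the counts summed over the 4 libraries of a group, with 3 counts as the floor of the group at 0, Cacng8 was at least 34.5-fold higher in Bern colon neuronal nuclei (6.91 CPM), but at least 5.98-fold (1.2 CPM) without replicate 4, the library at 22.8 CPM. By the same measure it was at least 8.55-fold higher in Bern SI (1.8 CPM; at least 5.17-fold without replicate 1). Cacng3, also at 0 in the Bern SI non-neuronal libraries, was at least 30.7-fold higher in Bern SI neuronal ones (6.46 CPM; at least 21.5-fold without replicate 1). Cacng4 (medians 8.24 and 2.93 CPM) did not pass at 1.00 ± 0.59 (adjusted p = 0.179), and passed without 6 libraries that stood apart on marker or mitochondrial sums, left out together after seeing the data (adjusted p = 0.0124). Cacng5 did not pass (0.53 ± 0.64, adjusted p = 0.544).

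Genes whose products assemble with or act on these channels were read from a list of 23, of which 22 could be tested, 13 were higher in neuronal nuclei and 6 were lower. That is 86.4% of those tested, where 43.5% of all genes passed (21.9% higher, 21.6% lower). The list was chosen with earlier results of these data known. The sodium leak channel complex was higher throughout: the pore gene Nalcn by 3.93 ± 0.25, its partners Unc79 by 4.45 ± 0.30 and Unc80 by 3.97 ± 0.28, and the chaperone gene Fam155a by 4.85 ± 0.26. Fgf13, whose product binds the tail of sodium channels, was higher by 3.96 ± 0.31, Fgf14 by 2.61 ± 0.42, and Sptbn4, the spectrin of the axon initial segment, by 3.96 ± 0.39. Ank3, the ankyrin that holds channels there, was higher by 0.59 ± 0.13. Stac2 (3.93 ± 0.44) and Stac (2.40 ± 0.37) encode adaptors of L-type channels. Lower in neuronal nuclei were Gem (-2.96 ± 0.42) and Rem1 (-3.61 ± 0.51), small GTPases that block calcium channels, the calcium release channel gene Ryr3 (-2.31 ± 0.19), Cachd1 (-1.34 ± 0.33), Nedd4l (-0.62 ± 0.15) and Fgf11 (-0.79 ± 0.31, adjusted p = 0.0376). The Fgf11 call was lost without the 6 libraries (0.192) and in 10 of the 32 fits that left out 1 library (up to 0.0775). The other partners named here kept their call without the 6 libraries.

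The second question is whether channel genes differ between the segments of the gut. In neuronal nuclei 1 of 34 genes tested passed, 2.94% of the set where 5.51% of all genes passed (1.97% higher in colon, 3.54% lower), and the median difference (colon over SI) was -0.24 against -0.01. The gene was Cacna1g, a T-type alpha1 subunit. In Bern it read 0, 3.79, 5.9 and 10 CPM in the colon libraries and 59.5, 61.1, 27.6 and 31 CPM in the SI libraries. In Crick it read 7.14, 4.6, 8.18 and 47.6 CPM in colon and 28.5, 73.2, 40.5 and 71.1 CPM in SI. All Bern colon libraries were below all Bern SI ones. In Crick 3 of the 4 colon libraries were below all SI ones and replicate 4 lay among them. The level was 6.08-fold lower in colon (-2.60 ± 0.54, 95% interval -3.67 to -1.54, adjusted p = 0.00459), with log2 ratios of mean CPM of -3.18 within Bern and -1.66 within Crick. The call held on leaving out any 1 of the 16 libraries, at most at an adjusted p of 0.0153, and was -3.31 without Crick colon replicate 4.

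Cacna1g did not move alone in the EGFP-positive libraries. The 4 genes read for interstitial cells of Cajal, which pace the gut wall, were all lower in colon, Kit by -5.55 ± 0.60, Ano1 by -7.59 ± 0.55, Prkcq by -8.14 ± 0.56 and Etv1 (also a gene of neurons) by -0.67 ± 0.18. Their sum was 346 to 504 CPM in Bern and 268 to 405 CPM in Crick colon neuronal libraries, and 702 to 2250 CPM and 1150 to 1850 CPM in the SI ones. Of the smooth muscle genes 3 of 8 were lower in colon too, and none of the 12 neuronal genes passed. The mitochondrial share also moved with the segment, without overlap, from 0.423% to 1.39% in colon and from 2.75% to 16% in SI neuronal libraries. The part of these cells and of the mitochondrial share in the Cacna1g result was not tested. Between the non-neuronal segments Cacna1g did not pass (medians 41.0 CPM in colon and 30.5 CPM in SI).

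The remaining 33 genes did not pass in neuronal nuclei, 5 of them at an unadjusted p below 0.05. Among these were Cacna1d (-0.72 ± 0.22, adjusted p = 0.0645), Cacng3 (-2.17 ± 0.75, adjusted p = 0.096), Scn8a (-0.45 ± 0.20, adjusted p = 0.208) and Scn7a (-0.63 ± 0.29, adjusted p = 0.231), all lower in colon. DESeq2 called 3 genes, Cacna1g, Cacna1d (adjusted p = 0.0288) and Cacng3 (adjusted p = 0.0232), and edgeR called 3 without Bern colon neuronal replicate 4 and 2 without Bern SI neuronal replicate 1. Of the channel partners, 3 of 21 tested passed, or 14.3% where 5.51% of all genes did. Ryr1 was higher in colon (1.94 ± 0.39, adjusted p = 0.00333), and Rem1 (-5.37 ± 0.89, adjusted p = 0.000527) and Ryr3 (-1.42 ± 0.25, adjusted p = 0.000971) were lower. No gene of the set passed in the test of whether the segment difference of neurons depends on the facility (0 of 34 with edgeR and with DESeq2, 0 at an unadjusted p below 0.05, where 0.00574% of all genes passed).

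In non-neuronal nuclei 12 of 30 genes tested passed, 6 higher in colon and 6 lower, or 40.0% where 9.32% of all genes passed (5.79% higher and 3.54% lower), with a median of 0.25 against 0.02. The 5 higher ones described here had all been higher in neuronal nuclei, as had 22 of the 36 genes tested between sorts. These 22 also include Cacna1a and Cacna1e, which were lower in colon here. Cacna1b was at 39 to 230 CPM in colon and at 3.06 to 37 CPM in SI, without overlap (1.87 ± 0.43, adjusted p = 0.00801), and Scn11a was at 11.6 to 66.3 CPM against 2.71 to 10.8 CPM (1.67 ± 0.46, adjusted p = 0.0237). The log2 ratios of mean CPM were 2.73 within Bern and 1.71 within Crick for Cacna1b, and 3.05 and 1.04 for Scn11a.

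Scn8a (2.18 ± 0.61, adjusted p = 0.0269), Scn3a (1.90 ± 0.57, adjusted p = 0.0363) and Cacna2d2 (1.86 ± 0.54, adjusted p = 0.0332) were higher in colon as well, with overlapping libraries. Their log2 ratios within Bern and Crick were 3.64 and 1.35, 2.85 and 1.53, and 3.44 and 0.83. Of the 12 neuronal genes outside the set 5 were higher in colon non-neuronal nuclei, and their sums there were higher than in SI, as given above. In Bern colon the non-neuronal level of Scn3a was 24.3% of the neuronal one, that of Scn8a 29.6%, of Scn11a 53.1%, of Cacna1b 16.3% and of Cacna2d2 31.7%, beside 25.2% for the neuronal list. In Crick colon the same genes were at 8.03%, 8.63%, 16.9%, 9.33% and 17.5%, beside 9.79% for the list. Other genes higher in neuronal nuclei, with a neuronal mean of at least 10 CPM, spread widely. They ran from 5.14% (Scn1a) to 94.4% (Cacna2d1) in Bern colon, with Scn9a at 9.19%. In Crick colon they ran from 5.63% (Scn9a) to 41.7% (Cacna1e). The part of neuronal RNA in these results was not tested. Epithelial genes also rose in colon (3 of 5), with sums of 130 to 963 CPM in SI and 1650 to 12100 CPM in colon. So did endothelial genes (3 of 4), with sums of 15.6 to 101 CPM in SI and 41.8 to 300 CPM in colon, 1 of 5 macrophage genes and 1 of 4 skeletal muscle genes tested. Their part was not tested.

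The 6 genes lower in colon non-neuronal nuclei included the leading channel genes of these cells. Cacna2d3 read 14.4, 4.76, 22.7 and 9.57 CPM in Bern and 15.5, 25.3, 8.01 and 5.27 CPM in Crick colon libraries. In SI it read 63.1, 30.4, 48.2 and 81.7 CPM in Bern and 89.6, 110, 63.7 and 39 CPM in Crick. Colon and SI did not overlap, and the level in colon was 6.35-fold lower (-2.67 ± 0.44, adjusted p = 0.000652), with log2 ratios of -2.12 within Bern and -2.48 within Crick. Cacna1e was at 229 to 767 CPM (median 461) in colon and at 621 to 1450 CPM (median 874) in SI (-1.33 ± 0.22, adjusted p = 0.000703). Cacna1a (-1.19 ± 0.29, adjusted p = 0.0134), Cacnb2 (-1.16 ± 0.23, adjusted p = 0.00371), Scn7a (-1.15 ± 0.25, adjusted p = 0.0057) and Cacna1c (-0.99 ± 0.23, adjusted p = 0.0102) followed. The log2 ratio of mean CPM for Scn7a was -0.09 within Bern and -1.58 within Crick, and the difference between these was not tested. Cacna1c was at -0.63 in both. For Cacna1e, Cacna1a and Cacnb2 the ratios within Bern and Crick were -1.12 and -0.89, -0.57 and -1.06, and -0.65 and -1.08. The fit scales libraries by TMM and these ratios do not. The fitted changes of Cacna1c, Cacna2d3, Cacna1e, Cacna1a and Cacnb2 were each more negative than both of their ratios. Of the smooth muscle genes 2 of 8 and of the fibroblast and PDGFRA cell genes 3 of 6 were lower in colon, and their part was not tested.

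Without the 6 libraries named above, 5 of the 12 calls held, among them those of Scn3a, Cacna1a, Cacna1e and Cacna2d3. Cacna1b (adjusted p = 0.12), Cacna1c (0.102), Cacna2d2 (0.245), Cacnb2 (0.0821), Scn7a (0.0669), Scn8a (0.115) and Scn11a (0.0537) were lost. Scn3a was lost without any 1 of 7 libraries, Bern colon replicate 1 (1.48, adjusted p = 0.104), Bern SI replicate 3, Crick colon replicates 1 and 2 and Crick SI replicates 1 to 3. Cacna2d2 was lost without any 1 of 7, Bern colon replicate 2 (1.37, adjusted p = 0.13), Crick colon replicates 3 and 4 and Crick SI replicates 1 to 4. Scn8a was lost without Bern colon replicate 1 or Crick SI replicate 1, 3 or 4 (up to 0.0584) and Scn11a without Crick SI replicate 1 or 3 (up to 0.0605). With the replicate block Cacna1a (adjusted p = 0.0593), Cacna2d2 (0.0669) and Scn11a (0.0505) were lost. Among the partners 6 of 22 were higher in colon, led by Fam155a (3.96 ± 0.57), Ryr1 (3.43 ± 0.74) and Fgf13 (2.77 ± 0.64), followed by Unc79, Unc80 and Nalcn, and Ryr3 (-1.30 ± 0.26) and Ryr2 (-1.14 ± 0.23) were lower. Over all genes 5.79% were higher and 3.54% lower. The Nalcn call was lost with the block (adjusted p = 0.0785), without the 6 libraries (0.0941) and in 8 of the 16 fits that left out 1 library (up to 0.0898). Without the 6 libraries Unc79 (adjusted p = 0.0537), Ryr1 (0.159), Ryr2 (0.0682) and Ryr3 (0.101) were lost too.

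The segment difference of neurons and of non-neuronal nuclei was compared in 1 model of all 32 libraries. It differed for 10 of 36 genes, or 27.8% where 6.48% of all genes passed (median difference -1.08 against -0.22). For 8 genes the difference of colon over SI was more negative in neuronal nuclei and for 2 more positive, as for 5.39% and 1.09% of all genes. Scn8a differed by -2.66 ± 0.58 (adjusted p = 0.00434), Cacna1g by -3.10 ± 0.83 (adjusted p = 0.0197), Scn11a by -1.76 ± 0.48 (adjusted p = 0.021), Cacna1b by -1.63 ± 0.45 (adjusted p = 0.0232), Scn3a by -2.10 ± 0.60 (adjusted p = 0.0274) and Cacna1d by -1.11 ± 0.33 (adjusted p = 0.0364). Cacng3 was fitted at -5.25 ± 1.52 (adjusted p = 0.0317), with 1 group at 0, so that the size is no bound.

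In Cacna1e (1.22 ± 0.26, adjusted p = 0.00359) and Cacnb2 (1.13 ± 0.32, adjusted p = 0.0261) the sign was the other way: neither passed between segments in neuronal nuclei, and both were lower in colon in non-neuronal ones. Among the marker lists 5 of 12 neuronal genes, 3 of 4 genes of interstitial cells of Cajal, 3 of 4 of endothelium, 2 of 4 tested of skeletal muscle, 1 of 5 of macrophages and 1 of 5 of epithelium also differed, more negative in neuronal nuclei. Of the 6 fibroblast and PDGFRA cell genes 1 was more positive. The part of these lists was not tested. Of the partners 1 of 22 was more positive (Ryr2, 1.43 ± 0.30) and 7 were more negative, among them Fam155a (-3.53), Fgf13 (-2.73), Unc79 (-2.57), Nalcn (-1.99) and Unc80 (-1.98). Over all genes 1.09% were more positive and 5.39% more negative. Without the 6 libraries 6 genes of the set passed, and Cacna1b, Cacna1e, Cacna1g and Cacnb2 were lost. Cacna1d was lost without any 1 of 15 libraries (up to an adjusted p of 0.0777), Cacng3 without any 1 of 5 (up to 0.0651), Scn3a without Bern colon non-neuronal replicate 1 (0.0714) and Cacnb2 without Crick colon neuronal replicate 2 (0.051).

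**Figure D5:**
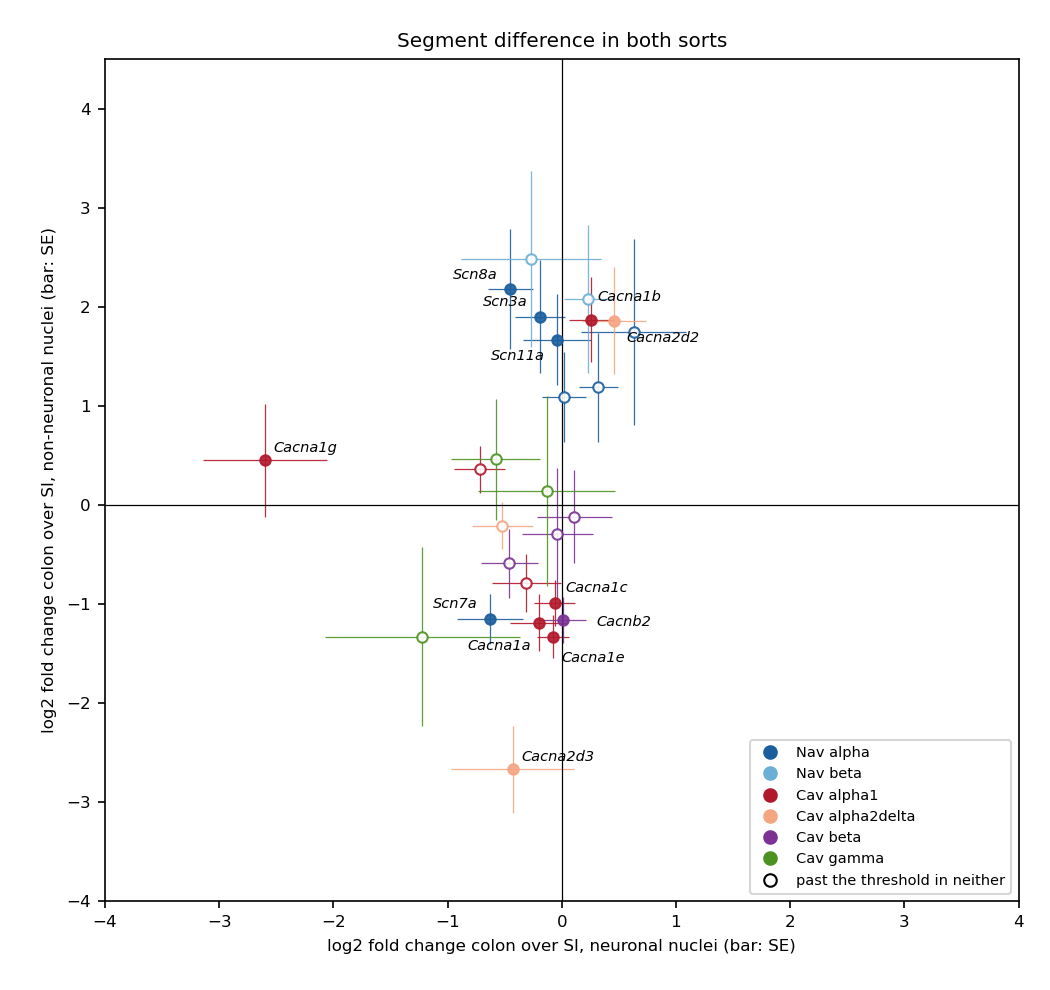
Log2 fold change of colon over SI in neuronal nuclei (horizontal axis) and in non-neuronal nuclei (vertical axis) for channel genes tested in both, with SE as bars. Filled and named points passed in at least 1 of the 2. Cacna1g stands alone on the left at -2.60, while the other named genes spread along the vertical axis, from Scn8a at 2.18 to Cacna2d3 at -2.67.

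The third question is whether the facility mattered. The libraries of each facility also share its handling and its depth, so facility and handling cannot be told apart in these comparisons. In neuronal nuclei 3 of 34 genes passed, or 8.82% where 7.72% of all genes passed (4.96% higher in Bern, 2.76% lower). The median of Bern over Crick was 0.19 against 0.01 for all genes. Cacnb3, a beta subunit of neuronal N-type and L-type channels, read 63.6, 104, 46.1 and 88.6 CPM in Bern colon and 22.9, 21.7, 23 and 33.8 CPM in Crick colon. In SI it read 58, 99.3, 99 and 42.8 CPM in Bern and 31.9, 38.1, 31.8 and 46.7 CPM in Crick. The facilities did not overlap in colon and met in SI through 1 Bern library at 42.8 CPM. The level was 2.37-fold higher in Bern (1.24 ± 0.25, adjusted p = 0.00417), with log2 ratios of mean CPM of 1.58 in colon and 1.01 in SI, and the call held on leaving out any 1 of the 16 libraries.

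Cacna2d2 was higher in Bern neuronal nuclei (79.7 to 270 CPM against 38.7 to 132 CPM, 1.07 ± 0.29, adjusted p = 0.0236) and Scn2a lower (221 to 441 CPM against 346 to 845 CPM, -0.66 ± 0.19, adjusted p = 0.0353). Cacna2d2 was lost without any 1 of 4 libraries, Crick colon neuronal replicates 1 and 2 and Crick SI neuronal replicates 1 and 3, up to an adjusted p of 0.0586, and Scn2a without any 1 of 8, Bern colon replicate 2, Bern SI replicates 1 and 2, Crick colon replicates 1 to 3 and Crick SI replicates 1 and 3, up to 0.0932. In edgeR's fit of all 32 libraries Cacna2d2 (adjusted p = 0.106) and Scn2a (0.26) did not pass, while Cacnb3 kept its call. The log2 ratios of mean CPM in colon and SI were 1.42 and 0.81 for Cacna2d2 and -0.91 and -0.41 for Scn2a. Of the 12 neuronal genes outside the set 5 were higher in Bern, with sums of 3790 to 5470 CPM in Bern and 1790 to 3040 CPM in Crick neuronal libraries, and their part was not tested. The partners Nedd4l (0.91 ± 0.17), Stac (1.12 ± 0.25), Stac2 (1.13 ± 0.34) and Fgf11 (1.43 ± 0.42) were higher in Bern, 4 of 21 tested, with none lower. Over all genes 4.96% were higher and 2.76% lower. The Fgf11 call was lost in 9 and the Stac2 call in 8 of the 16 fits that left out 1 library (up to an adjusted p of 0.143 and 0.106). Without 1 library the number of genes called ran from 1 (Crick colon replicates 1 or 2, Crick SI replicates 1 or 3) to 7 (Crick SI replicate 2), with 5 without Bern colon replicate 4 and 6 without Crick colon replicate 4.

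In non-neuronal nuclei 5 of 30 genes passed, or 16.7% where 9.29% of all genes passed (median 0.33 against -0.06). Of these, 4 were higher in Bern and 1 lower, where 4.35% and 4.94% of all genes were. Cacnb3 was again higher in Bern, at 43.1 to 161 CPM (median 92.8) against 14 to 60.6 CPM (median 34.2) in Crick (1.52 ± 0.36, adjusted p = 0.0101). Cacna1c was at 784 to 1860 CPM (median 1020) against 350 to 809 CPM (median 569), a change of 1.00 ± 0.23 (adjusted p = 0.00885) with log2 ratios of 0.99 in both segments. Cacnb2 (0.80 ± 0.23, adjusted p = 0.0336) and Cacna1e (0.71 ± 0.22, adjusted p = 0.0422) were higher in Bern too. The smooth muscle sums were 8450 to 17900 CPM in Bern and 6000 to 13900 CPM in Crick, with 2 of 8 genes higher in Bern, and their part was not tested.

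Without the 6 libraries only Cacna1c kept its call in this comparison. Cacna1e was lost without Bern colon replicate 3, Bern SI replicate 1, Crick colon replicate 1 or 3, or Crick SI replicate 1, 3 or 4 (up to an adjusted p of 0.0856). Cacnb2 was lost without Bern colon replicate 3, Crick colon replicate 1 or 3, or Crick SI replicate 1, 2 or 3 (up to 0.0772), and the count of genes called fell to 3 without Bern colon replicate 3, Crick colon replicate 1 or 3, or Crick SI replicate 1 or 3. Nedd4l (1.98 ± 0.25) and Fgf11 (1.87 ± 0.45) were the partners higher in Bern, 2 of 22, with none lower. Over all genes 4.35% were higher and 4.94% lower. The facility difference did not differ between the sorts for any gene of the set (0 of 36 with edgeR and with DESeq2, where 0.204% of all genes passed). At an unadjusted p below 0.05 there were 5, among them Scn1a, Cacna1c, Cacng2 and Cacng8. Over the 8 comparisons 31 of the 40 genes passed at least once. Of these, 28 passed between sorts, where 43.5% of all genes did. The share of all genes that passed at least once was not counted.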

How the data were processed

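The table that the authors deposited holds estimated counts (expected counts) per gene for 32 libraries, made with STAR 2.5.2 and RSEM 1.3.0 on GRCm38, per the submitters' processing notes, which also name DESeq2 1.10.1. The kit was NuGEN Ovation RNA-Seq V2 with single-end reads of 75 bases, per the labels' protocols. Strand and annotation release are not given in the sources used here. Of the values, 10.76% were not whole, and counts were rounded. Symbols, exons and coordinates came from GENCODE M21 (51719 identifiers matched, 193 not), so a gene model may differ from the authors' own.

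The test was edgeR 4.0.16 (quasi-likelihood, TMM, filterByExpr, limma 3.58.1, R 4.3.3) with a model of group means. It was fitted to all 32 libraries for the sort and its interactions (21521 genes), to the 16 neuronal libraries (17419 genes) and to the 16 non-neuronal libraries (19164 genes), with Benjamini-Hochberg adjustment over all genes of a fit and a threshold of 0.05. The SE is the log2 fold change over the root of F. The procedure was also run on simulated counts. Their spread was set to the same value for all genes and not taken from these replicates. That run cannot vouch for the calls here. Values within a facility are log2 ratios of mean CPM, without TMM. A floor is 3 counts over a group, 0.21 CPM in Bern SI non-neuronal nuclei, and covers counting error only.

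Alternatives were DESeq2 1.42.0, its size factors, no filter, the replicate block, each segment alone, all 32 libraries for every comparison, and each library left out. Leaving out 6 libraries together (Bern colon non-neuronal replicates 1 and 2, Bern SI non-neuronal replicate 1, Crick colon non-neuronal replicate 3, Crick SI non-neuronal replicate 2, Crick SI neuronal replicate 2) and the length of the longest coding transcript were added after seeing the data. Replicates differed by more than counting noise (chi-square per degree of freedom at least 4.51). The genes, the lists of markers and the partners were chosen with earlier results of these data known. Every gene past the threshold could be named, others by values where a group mean reached 5 CPM, and library values were given from 10 CPM. For 2 genes of the set no values are reported here, while counts and medians over the set include them.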

Additional observations from a re-analysis of the deposited data

Results flagged for a closer look

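In 11 of 171 combinations of a gene and a group of 4 libraries, 1 library stood apart from the other 3 by more than Dixon's 95% limit, where chance marks about 1 in 20. Replicate 4 of the Crick colon neuronal group was apart in 3 genes: Cacna1g at 47.6 CPM (others 4.6 to 8.18), Scn2b at 35.4 CPM (5.69 to 9.5) and Cacnb3 at 33.8 CPM (21.7 to 23). Replicate 4 of the Crick SI non-neuronal group was apart in Scn9a at 31 CPM (7.24 to 10), Scn3a at 28.7 CPM (11.9 to 14.5) and Cacna1b at 27.5 CPM (13.4 to 15.3). In Bern colon non-neuronal nuclei Scn3a reached 242 CPM in replicate 1 (others 39.1 to 58.4) and Cacna2d2 172 CPM in replicate 2 (26.9 to 39). Cacna1e was highest at 1450 CPM in replicate 1 of Bern SI non-neuronal nuclei (1050 to 1090) and lowest at 832 CPM in replicate 1 of Bern colon neuronal nuclei (1010 to 1050). Cacng7 was low at 5.52 CPM in replicate 1 of Crick SI non-neuronal nuclei (13.8 to 15.1).

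For 10 genes of the set the difference of colon over SI was not the same in the sorts, by the interaction term of edgeR's model. The values of 9 are given here (neuronal minus non-neuronal, log2): Cacng3 -5.25, Cacna1g -3.1, Scn8a -2.66, Scn3a -2.1, Scn11a -1.76, Cacna1b -1.63, Cacna1d -1.11, Cacnb2 1.13 and Cacna1e 1.22.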

How the results depend on the processing

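Leaving out 1 library at a time, the number of channel genes called ran from 26 to 29 between sorts, 1 to 3 between segments in neuronal and 8 to 13 in non-neuronal nuclei, 1 to 7 between facilities in neuronal and 3 to 7 in non-neuronal nuclei, 8 to 14 for the interaction of segment and sort, and 0 to 0 for the other interactions. DESeq2 called 3 genes between neuronal segments. Without a filter 5 genes were called between facilities in neuronal and 8 in non-neuronal nuclei, and 1 for facility by sort. A fit of all 32 libraries gave 1 and 8 for the facility comparisons. Without the 6 libraries the counts were 5 (non-neuronal segments), 7 and 1 (facilities, neuronal and non-neuronal) and 6 (segment by sort). Cacna1e reversed between sorts within SI alone, at -0.18. With the longest transcript the neuronal shares were 24.6% for Cacna1b, 24.2% for Cacna1e and 23.1% for Cacna1a.

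The replicate block gave 27 calls between sorts, 1 and 9 between segments, 10 for segment by sort, 0 for facility by sort and 0 for segment by facility. It was not possible between facilities. No pair of groups had all 4 correlations of same-numbered deviations above 0.1, so numbers were not taken as pairs. Of 48 correlations (-0.328 to 0.528) 10 were above 0.1, all in Crick, among them 3 of 4 between the sorts in each segment, and 39 of 96 best matches went to the own number, a hint from the data that some may be paired.

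Over all genes, DESeq2 against edgeR called 1599 against 960 (neuronal segments), 2948 against 1787 (non-neuronal segments), 2325 against 1344 and 2853 against 1780 (facilities), 2215 against 1395 (segment by sort), 628 against 44 (facility by sort) and 35 against 1 (segment by facility). Without a filter 1652, 2155, 6373, 473 and 93 genes were called for neuronal segments, both facility comparisons (neuronal, non-neuronal), facility by sort and segment by facility. All 32 libraries gave 2862 (2108 higher, 754 lower, against 1109 and 678) and 3176 for the non-neuronal segments and facilities, the block 11 for facility by sort, and the fit without the 6 libraries 764, 745 and 143 for non-neuronal segments, non-neuronal facilities and facility by sort. DESeq2's size factors moved the median of all genes between sorts from -0.01 to -0.11. Genes of a few CPM are limited by depth.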
